A study of Danio rerio with 3 samples.

Results

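The genes described here are those with a mean of at least 100 counts over 3 RNA-seq libraries of whole zebrafish embryos, outside the ribosomal, oxidative phosphorylation and PI3K genes, compared between the libraries labelled homozygous (HO) and wild-type (WT) for setd2. Of 32520 gene identifiers, 12017 reached this mean, 370 of these belonged to the left-out groups, and 11647 genes were described. Of these, 1524 belonged to 47 lists of tissue, developmental and process genes, and all other values refer to the 11647 genes as a whole. At the edge of the threshold, unc80 had 111, 70 and 118 counts in the libraries labelled HO, heterozygous (HE) and WT and was left out, whereas nudt17, with 120, 81 and 99 counts, was kept.

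The study examined whether zebrafish can do without Setd2, and sequenced RNA of 36 hpf embryos, 1 library for each genotype. All 3 libraries came from whole bodies of Tübingen embryos, labelled HO, HE and WT for setd2, and the study describes the 3 genotypes as littermates. Which of the study's mutant lines was sequenced is not stated in the labels, and the line used by default in the study carries a frame-shift in an early exon. Library totals were 14160325 counts for the label HO, 12760683 for HE and 13340950 for WT. With 1 library per genotype there was no replicate check and no test between genotypes, and no p-value is given. All intervals are exact 95% binomial intervals and cover counting error only.

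Setd2 is the enzyme that places the third methyl group on lysine 36 of histone H3 along the bodies of transcribed genes, a mark read by factors in splicing, DNA methylation and repair. At 36 hpf the zebrafish embryo has a beating heart, circulating primitive red cells, contracting trunk muscle and a lens whose fibre cells are filling with crystallins, and it has not yet hatched. In RNA of a whole embryo, fewer cells of a type and less RNA per cell cannot be told apart.

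The targeted gene was not lower in the library labelled HO. setd2 (ENSDARG00000062244) had 2087, 1380 and 1348 counts in the libraries labelled HO, HE and WT. It was highest in the library labelled HO, with a log2 ratio of CPM (a gene's share of the scaled library total) of 0.55 for HO over WT and an interval of 0.45 to 0.65. A frame-shift can lower the transcript of its gene or leave it in place, and a count over the whole transcript does not show which transcripts carry one. For a line in which the frame-shift lowers the transcript, these counts would go against the label HO. Because the labels do not name the line, the counts of setd2 do not settle whether the labels hold. For this reason the libraries are called by their labels throughout. Among the writers, erasers and readers of histone H3 lysine 36 methylation, setd2 was the 1 gene of 30 measured past a log2 ratio of 0.5. The interval lay above 0 for 11 of the 30 (36.7%, compared with 15.7% of all described genes) and below 0 for 1 (3.33%, compared with 12.3%). The median log2 ratio was 0.11, or 0.08 after a trend over gene length was removed. The demethylase kdm4b had 2789, 2458 and 2581 counts and the DNA methyltransferase dnmt3ba, whose mammalian counterpart binds the mark, had 4462, 3882 and 4302 counts in the libraries labelled HO, HE and WT.

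Most genes differed little between the libraries labelled HO and WT. A log2 ratio of at least 0.5, which is a 1.41-fold difference, was reached by 142 of the 11647 genes on the higher side (1.22%) and by 192 on the lower side (1.65%). The interval for counting error lay above 0 for 1832 genes (15.7%) and below 0 for 1434 genes (12.3%). Lists with many counts have narrower intervals, so that smaller ratios exceed counting error in them. The median half-width was 0.21 over all genes, 0.11 for chaperone genes, 0.11 for keratins and 0.10 for proliferation genes. It was 0.13 for collagens and 0.10 for yolk syncytial layer genes. The SD of the log2 ratios over genes was 0.22 for HO over WT, 0.25 for HO over HE and 0.23 for HE over WT. Thus the spread of genes between the HO and WT labels was no wider than that of the other pairs of libraries, and each pair shares a library with the others. Of the 1524 listed genes, 1465 (96.1%) were within a log2 ratio of 0.5, 33 were higher and 26 were lower in the library labelled HO. Of the 47 lists, 19 held 0 genes past 0.5. Because so few of all genes were past it, such a 0 does not by itself set a list apart from the rest. The medians of 43 of the 47 lists lay within 0.1 of 0, where the median of all described genes was 0.01. The lists with a median past 0.1 were globin genes, lens crystallins, other lens genes and the histone H3 lysine 36 methylation genes.

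The chromosome of setd2 held a large share of the differences. Of the 278 genes past a log2 ratio of 0.5 that could be placed on a chromosome, 56 (20.1%) were on chromosome 16, which carries setd2, compared with 483 of all 10592 placed genes (4.56%). Among listed genes the counts were 14 of 55 (25.5%) past 0.5, compared with 73 of all 1459 placed (5.0%). Both directions were present there, with 25 genes higher and 31 lower in the library labelled HO. The part of this chromosome in any listed difference was not tested, and the genes on it are named as such below.

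**Figure D1:**
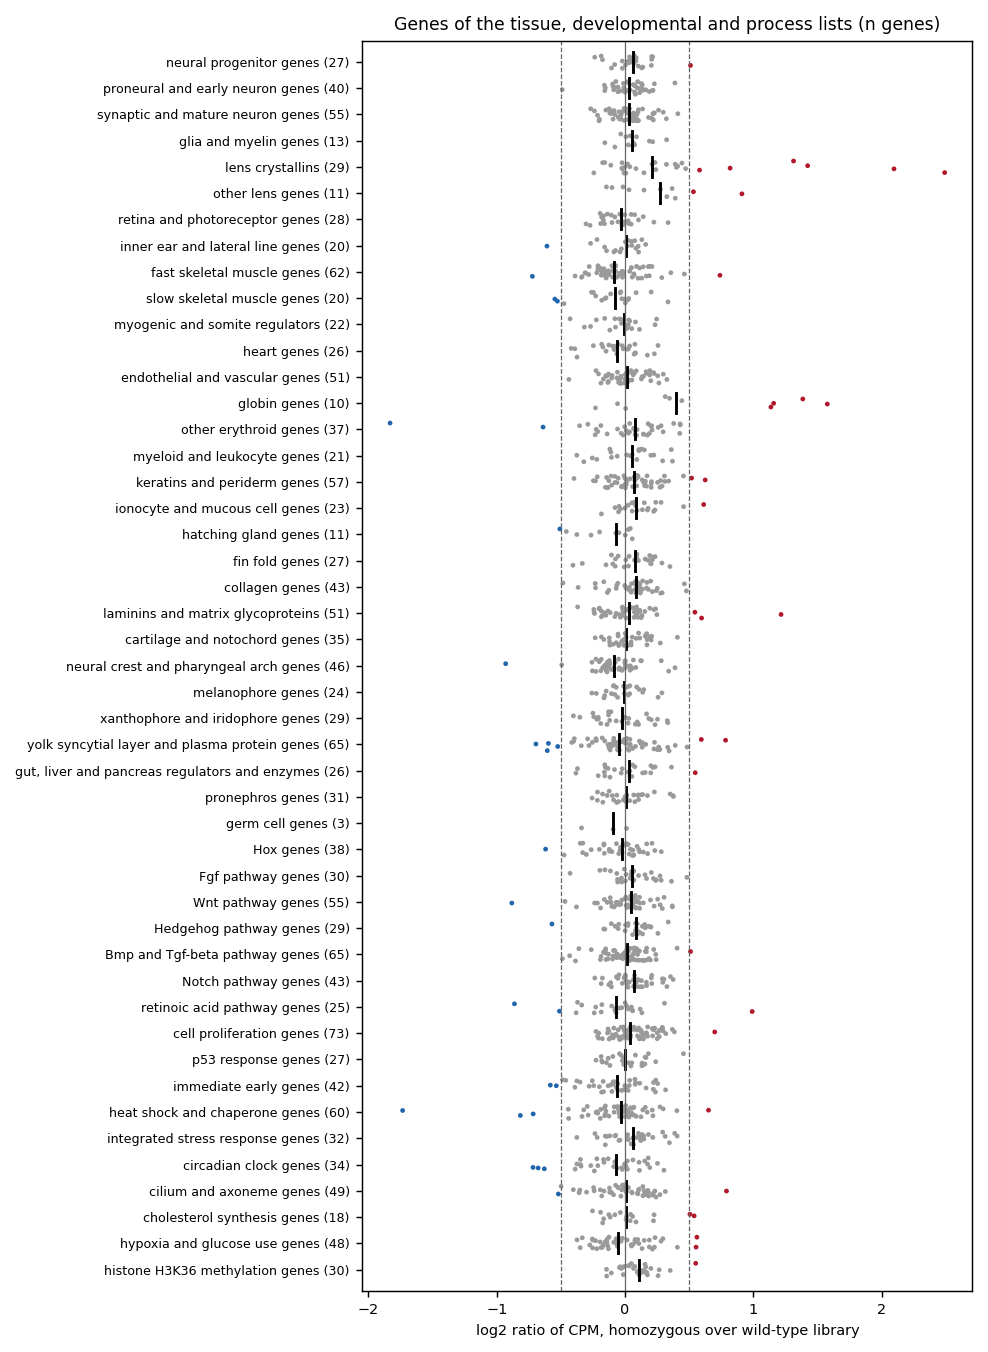
Log2 ratio of CPM of the library labelled HO over the library labelled WT (horizontal axis) for each measured gene of the 47 lists (points; number of genes in parentheses), with the list median as a black bar. Red points are at or above 0.5, blue points at or below -0.5 (dashed lines), and grey points between; lens crystallins and globin genes reach furthest to the right, with crybb1l1 at 2.49.

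The 2 highest log2 ratios of all described genes were those of lens crystallins, and 4 of the 10 highest were. Crystallins are the transparent structural proteins of lens fibre cells, and the beta and gamma classes are made by several related genes. Of 57 crystallin genes in the table, 29 passed the minimum mean, with a list median of 0.21. Past 0.5 in the library labelled HO, 6 (20.7%, compared with 1.22% of all genes) were higher and 0 (compared with 1.65%) lower. Counting error was exceeded upward by 17 of the 29 (58.6%, compared with 15.7% of all genes) and downward by 1 (3.45%, compared with 12.3%). Some of these genes passed the minimum mean only through the libraries where they were high, such as crybb1l1 and crygmx, with 43 and 69 counts in WT.

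crybb1l1, a beta crystallin, had 265 counts in the library labelled HO, 358 in HE and 43 in WT, a log2 ratio of 2.49 for HO over WT (2.07 to 3.04), the highest of all described genes. cryba4, another beta crystallin, had 639, 480 and 140 counts in the libraries labelled HO, HE and WT, with a log2 ratio of 2.09 (1.84 to 2.38). crybb1 had 242, 428 and 91 counts, with a log2 ratio of 1.31 (0.98 to 1.69). In each of these genes the libraries labelled HO and HE were both well above WT, with HE the highest for crybb1l1 and crybb1. HE was also the highest for cryba1b, with 447, 613 and 239 counts and a log2 ratio of 0.82. The gamma crystallin crygmx, with 199, 139 and 69 counts, had its highest count in the library labelled HO, at a log2 ratio of 1.42.

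The measured beta crystallins were higher in the library labelled HO, with a median of 0.44. Beyond counting error, 9 of 9 genes were above 0, compared with 15.7% of all genes. The count is not free of the minimum mean, which is taken over all 3 libraries. In the library labelled WT, crybb1l1, crybb1 and cryba1l2 had 43, 91 and 99 counts, and they passed through the higher counts of HO and HE. The summed level of all 13 beta crystallins in the table was 607.4 CPM in the library labelled HO, 660.2 in HE and 465.5 in WT. The beta crystallins with the most counts had smaller ratios. cryba2b had 2605, 2308 and 2324 counts in the libraries labelled HO, HE and WT, a log2 ratio of 0.08, and cryba2a had 1697, 1536 and 1450 counts, a log2 ratio of 0.15. crybb1l2 had 1595, 1591 and 1151 counts, a log2 ratio of 0.39 (0.28 to 0.50). Among the 20 measured gamma crystallins the median was 0.01. Beyond counting error, 8 (40.0%, compared with 15.7% of all genes) were above 0 and 1 (5.0%, compared with 12.3%) below 0. crygn2, with the most counts of this class, had 2154, 1833 and 1469 counts, a log2 ratio of 0.47 (0.38 to 0.57). Over all 41 gamma crystallins in the table the summed level was 1096 CPM in the library labelled HO, 1186 in HE and 1009 in WT, a log2 ratio of 0.12. Most of the measured ones are crygm2d genes, near-identical copies between which reads can be split, and all 21 copies in the table, 17 of them above the minimum mean, summed to 12738, 12580 and 11662 counts in the libraries labelled HO, HE and WT, a log2 ratio of 0.05. The outlying copy crygm2d9 (415, 332 and 262 counts, log2 ratio 0.58) is therefore uncertain as a single gene. The 3 alpha crystallins in the table were under the minimum mean, cryaa among them with 89, 63 and 37 counts.

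Other lens fibre genes lay on the same side. mipa, a water channel of lens fibres, had 562, 505 and 282 counts in the libraries labelled HO, HE and WT, a log2 ratio of 0.91 (0.71 to 1.13). Its paralogue mipb had 562, 596 and 424 counts, a log2 ratio of 0.32. The fibre membrane gene lim2.3 had 293, 233 and 191 counts, a log2 ratio of 0.53. The median of the 11 measured genes was 0.28. Beyond counting error, 5 (45.5%, compared with 15.7% of all genes) were above 0 and 0 (compared with 12.3%) below 0. The transcription factor gene mafba of this list had 508, 479 and 486 counts, a log2 ratio of -0.02. For HE over WT, which shares the WT library, the median of the crystallins was 0.30.

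Globins of the primitive red cells gave the other large difference. Of 10 measured globin genes, 4 (40.0%, compared with 1.22% of all genes) were at or above a log2 ratio of 0.5. At or below -0.5 there were 0 (compared with 1.65%), and the median was 0.39. Counting error was exceeded upward by 7 (70.0%, compared with 15.7%) and downward by 0 (compared with 12.3%). hbbe1.1, an embryonic beta globin, had 10139 counts in the library labelled HO, 9459 in HE and 3218 in WT, a log2 ratio of 1.57 (1.52 to 1.63). hbbe1.3 had 13852, 14411 and 5875 counts in the libraries labelled HO, HE and WT, a log2 ratio of 1.16. hbae1.3, an embryonic alpha globin, had 1386, 1315 and 501 counts, a log2 ratio of 1.38, and hbae1.1 had 1905, 1261 and 819 counts, a log2 ratio of 1.14. The library labelled WT was lowest in all 4 genes, and HE was close to HO except for hbae1.1, where it lay between.

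These genes are copies placed on chromosome 3, and other copies there were at balance. hbae3, the globin with the most counts, had 29866, 30658 and 28165 counts in the libraries labelled HO, HE and WT, a log2 ratio of 0.00 (-0.02 to 0.03), and hbbe1.2 had 1937, 2309 and 1909 counts, a log2 ratio of -0.06. Because reads of near-identical copies can be assigned to either, the copies were also summed. The 3 hbbe1 copies together had 25928, 26179 and 11002 counts in the libraries labelled HO, HE and WT, a log2 ratio of 1.16. The hbae1 and hbae3 copies together had 33366, 33445 and 29630 counts, a log2 ratio of 0.09 (0.07 to 0.11). Thus the difference was present in the summed hbbe1 copies and was small in the sum of the hbae1 and hbae3 copies. Most counts of the latter sum were those of hbae3, whereas the hbae1 copies were each higher in the library labelled HO than in WT. Besides hbae1.1 and hbae1.3, hbae1.2 had 209, 211 and 145 counts in the libraries labelled HO, HE and WT, a log2 ratio of 0.44. Over the 8 genes of each class in the table, beta globins summed to 2158 CPM in the library labelled HO, 2385 in HE and 1084 in WT, and alpha globins to 2363, 2655 and 2219 CPM. The beta globins on chromosome 12 differed less than the summed hbbe1 copies. hbbe2 had 1097, 1009 and 816 counts in the libraries labelled HO, HE and WT, a log2 ratio of 0.35, and hbbe3 had 3593, 2991 and 2737 counts, a log2 ratio of 0.31.

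As a list, other erythroid genes differed less than the globin genes. The median of 37 measured genes was 0.08, compared with 0.39 for the 10 measured globin genes. Beyond counting error, 15 (40.5%, compared with 15.7% of all genes) were above 0 and 4 (10.8%, compared with 12.3%) below 0. slc4a1a, the red cell anion exchanger, had 6932, 5349 and 5339 counts in the libraries labelled HO, HE and WT, a log2 ratio of 0.30, and alas2, the enzyme that starts haem synthesis in red cells, had 3361, 2556 and 2754 counts, a log2 ratio of 0.21. Both were highest in the library labelled HO, with HE near WT, unlike the globins. mibp2, also among the 3 genes of this list with the most counts, was lower in the library labelled HO than in WT. It had 4780, 5138 and 5530 counts in the libraries labelled HO, HE and WT, a log2 ratio of -0.29 (-0.35 to -0.23). It is named NMRK2 in the reference and was matched to the list by symbol, and its expression in red cells was not examined. Its place among erythroid genes is therefore uncertain, although it is counted in the 4 below 0. The 2 genes past 0.5 were lower and act in haem metabolism. blvrb, a biliverdin reductase, had 38, 192 and 133 counts, a log2 ratio of -1.83 (-2.45 to -1.36), the lowest of all described genes, and uros, an enzyme of haem synthesis, had 173, 213 and 256 counts, a log2 ratio of -0.64. The 38 counts of blvrb were the smallest of any described gene in the library labelled HO, and blvrb passed the minimum mean through HE and WT. Of 21 myeloid and 51 endothelial genes measured, 0 were past 0.5, with medians of 0.05 and 0.01. Of all genes, 1.22% were past it on the higher side and 1.65% on the lower side.

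**Figure D2:**
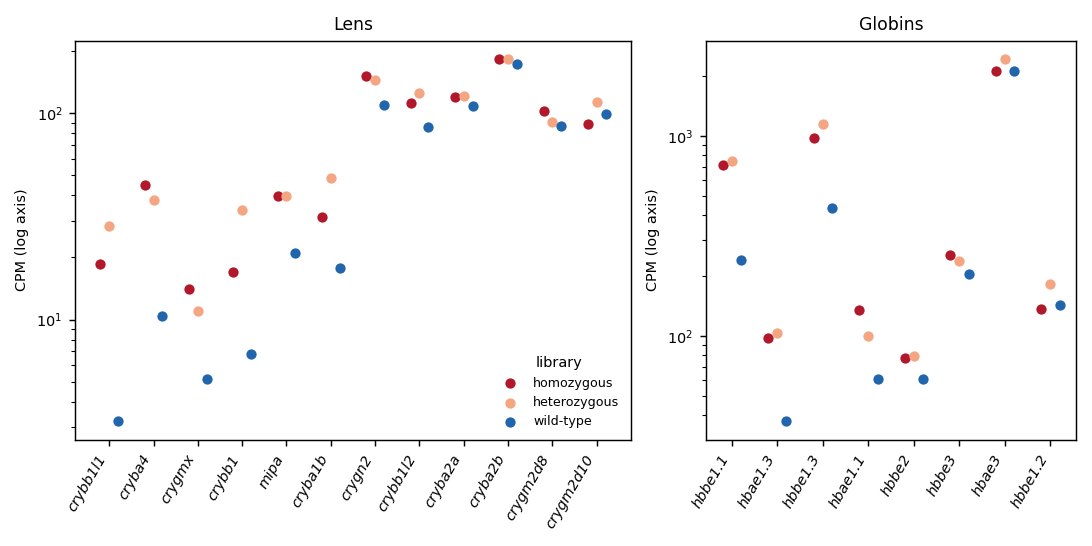
Level in CPM (log axis) of lens genes (left) and globin genes (right) in the 3 libraries, with 1 point per library, homozygous in red, heterozygous in orange and wild-type in blue. For crybb1l1, cryba4, crybb1 and for hbbe1.1, hbae1.3 and hbbe1.3, the libraries labelled HO and HE sit above WT; for cryba2b and hbae3 the 3 libraries nearly coincide.

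Genes of the contractile apparatus lay slightly lower in the library labelled HO. Of 62 measured fast muscle genes, 31 (50.0%, compared with 12.3% of all genes) were below 0 beyond counting error and 11 (17.7%, compared with 15.7%) above. In each direction 1 gene (1.61%) passed 0.5, compared with 1.22% of all genes on the higher and 1.65% on the lower side. The median was -0.09, and the summed level of the 73 genes in the table was 43480 CPM in the library labelled HO, 43990 in HE and 46680 in WT. actc1b, an actin of striated muscle, had 108503, 88089 and 112526 counts in the libraries labelled HO, HE and WT, a log2 ratio of -0.13. In this gene the library labelled HE was the lowest. mylpfa, a fast myosin light chain, had 65258, 64544 and 62394 counts, a log2 ratio of -0.02. The large counts of muscle genes give narrow intervals, so that many of these small differences exceed counting error. ampd1, the muscle AMP deaminase, had 160, 144 and 251 counts, a log2 ratio of -0.72, and txlnba, a taxilin, had 356, 247 and 201 counts, a log2 ratio of 0.74.

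Slow muscle genes had a median of -0.08 over 20 measured genes, with 2 lower past -0.5. These were ckmt2b, a mitochondrial creatine kinase, with 369, 356 and 504 counts in the libraries labelled HO, HE and WT, and myoz2a, a Z-disc protein, with 97, 73 and 135 counts. Their log2 ratios were -0.53 and -0.55, and HO and HE were both below WT. The slow myosin heavy chain smyhc1 went the other way, with 5879, 4390 and 4412 counts and a log2 ratio of 0.33. The 26 heart genes had a median of -0.06 and the 22 myogenic and somite regulators a median of -0.01, with 0 genes past 0.5 in either list. Of all genes, 1.22% were past it on the higher side and 1.65% on the lower side.

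Nervous system genes were close to balance, with a median of 0.04. Of 135 measured genes for neural progenitors, early neurons, synapses and glia, 31 (23.0%, compared with 15.7% of all) were above 0 beyond counting error. Below 0 were 7.41% (compared with 12.3%). Among the 40 proneural and early neuron genes, 13 (32.5%) were above 0 and 4 below 0. Intervals of the 135 genes were narrow, with a median half-width of 0.14 (0.21 over all genes). At or below a log2 ratio of -0.5 there were 0 (compared with 1.65%). At or above 0.5 there was 1 (0.74%, compared with 1.22%). This was nes, which encodes an intermediate filament of neural progenitors and is on chromosome 16, with 1319, 878 and 876 counts in the libraries labelled HO, HE and WT and a log2 ratio of 0.51. Of the 27 progenitor genes, 7 (25.9%, compared with 15.7% of all genes) were above 0 and 3 (11.1%, compared with 12.3%) below 0 beyond counting error. The progenitor genes with the most counts were nearer to balance than nes. fabp7a, a radial glial fatty acid binding protein, had 7648, 7797 and 7654 counts, a log2 ratio of -0.08, and gfap, a radial glial filament, had 3457, 3202 and 3094 counts, a log2 ratio of 0.08. elavl3, an RNA binding protein of newborn neurons, had 12191, 9836 and 10660 counts, a log2 ratio of 0.11. The medians were 0.06 for 27 progenitor, 0.03 for 40 proneural and early neuron, 0.03 for 55 synaptic and 0.06 for 13 glial genes. Of 28 retina genes 0 passed 0.5, with a median of -0.03, and pax6a, a regulator of the eye field, had 1785, 1605 and 1571 counts. The inner ear and lateral line list had a median of 0.01 over 20 genes. Its 1 gene past 0.5 was s100t on chromosome 16, with 88, 93 and 128 counts and a log2 ratio of -0.61.

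In the skin, keratin and periderm genes had a median of 0.07 over 57 measured genes, with 17 (29.8%, compared with 15.7% of all genes) above 0 and 7 (12.3%, as for all genes) below 0 beyond counting error. The keratin krt4, with the most counts of the list, had 147070, 133538 and 124712 counts in the libraries labelled HO, HE and WT, a log2 ratio of 0.16. cyt1 and cyt1l, also among the 3 genes of the list with the most counts, were at balance between HO and WT. cyt1 had 26678, 29225 and 25236 counts (log2 ratio 0.00) and cyt1l had 21589, 21959 and 20332 counts (log2 ratio 0.01). The 2 genes past 0.5 were krt17 (838, 739 and 553 counts, log2 ratio 0.52) and cldnf, a claudin of tight junctions (239, 207 and 146 counts, log2 ratio 0.62). In both, the library labelled HE was nearer to HO than to WT. Of 23 ionocyte and mucous cell genes, rhbg, an ammonium transporter on chromosome 16, was past 0.5, with 796, 589 and 492 counts and a log2 ratio of 0.61.

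Collagens were slightly higher in the library labelled HO. Of 43 measured collagen genes, 20 (46.5%, compared with 15.7% of all genes) were above 0 beyond counting error and 5 (11.6%, compared with 12.3%) below. The median was 0.09 and 0 genes were past 0.5. col1a1a, a chain of fibrillar collagen I, had 40904, 36068 and 34117 counts in the libraries labelled HO, HE and WT, a log2 ratio of 0.18. Long genes as a whole were higher in the library labelled HO, the median log2 ratio being -0.05 in the fifth of genes with the shortest exonic length and 0.05 in the fifth with the longest. After this trend was removed the collagen median was 0.04, and that of the 27 fin fold genes was 0.01 where it had been 0.08. and1, an actinodin of the fin fold rays, had 7203, 6325 and 5880 counts, a log2 ratio of 0.21. Among 51 laminin and matrix glycoprotein genes the median was 0.03 and 3 (5.88%, compared with 1.22% of all genes) were higher past 0.5. ecm1b, an extracellular matrix protein on chromosome 16, had 177, 121 and 71 counts, a log2 ratio of 1.21. nid1a, a basement membrane nidogen, had 773, 595 and 501 counts, a log2 ratio of 0.54, and emilin2a, a glycoprotein of elastic fibres, had 188, 109 and 117 counts, a log2 ratio of 0.60. ecm1b and nid1a had the library labelled HE between HO and WT, whereas emilin2a had HE near WT. With 71 counts in WT, ecm1b passed the minimum mean through HO and HE. The 35 cartilage and notochord genes had a median of 0.01 and 0 past 0.5.

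**Figure D3:**
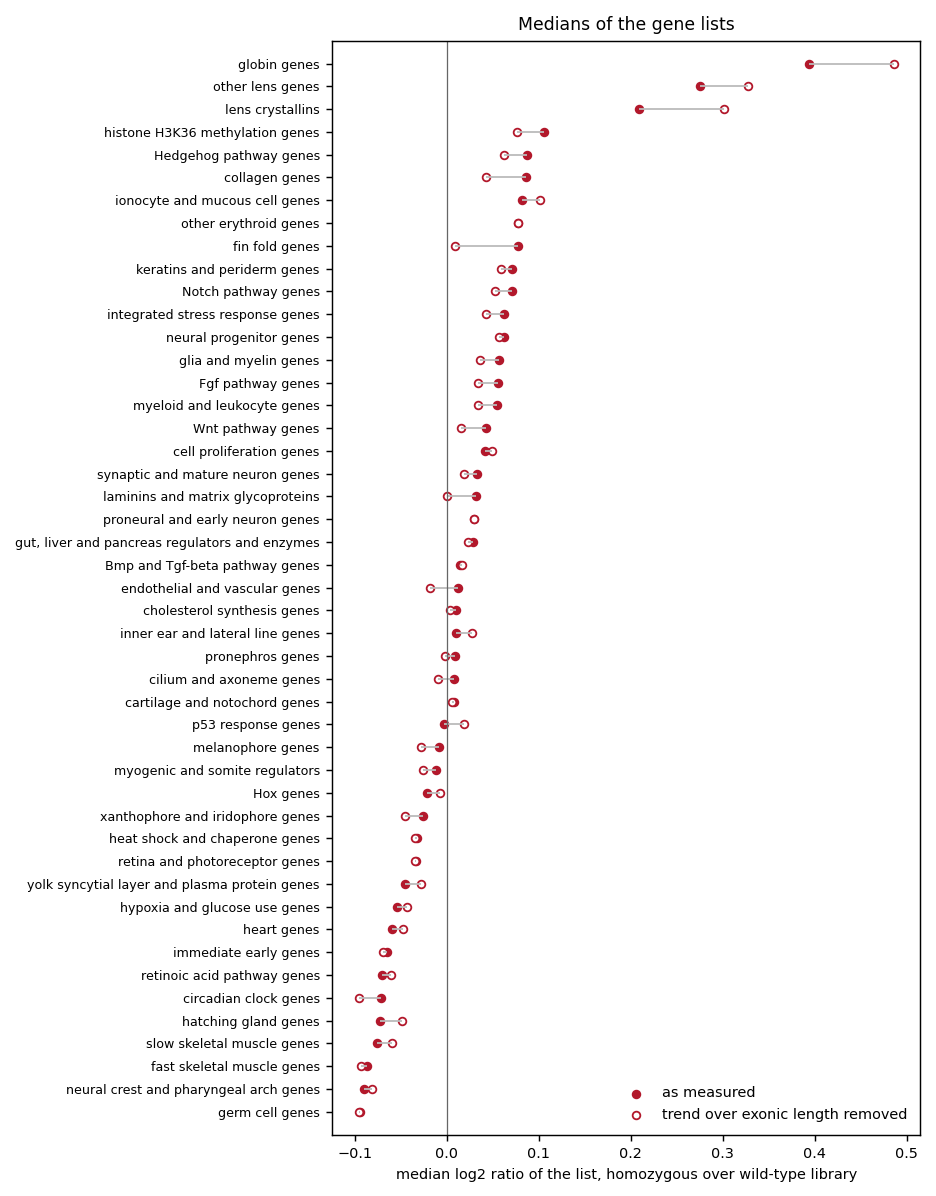
Median log2 ratio of the library labelled HO over WT (horizontal axis) for each of the 47 lists, ordered by size, as measured (filled) and after the trend over exonic length was removed (open). Globin genes (0.39 and 0.49), other lens genes (0.28 and 0.33) and lens crystallins (0.21 and 0.30) stand to the right of all other lists under both.

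Neural crest and pharyngeal arch genes had a median of -0.09 over 46 measured genes. Beyond counting error, 10 (21.7%, compared with 12.3% of all genes) were below 0 and 2 (4.35%, compared with 15.7%) above 0. crestin, a marker of migrating neural crest in zebrafish, had 70, 118 and 128 counts in the libraries labelled HO, HE and WT, a log2 ratio of -0.93 (-1.39 to -0.52). Here the library labelled HO was low and HE was near WT, and crestin passed the minimum mean through HE and WT. Members with many counts were near balance, such as tfap2a, a crest regulator, with 2933, 2684 and 2773 counts and a log2 ratio of 0.00. The pigment genes, which come from the neural crest, had 0 of 53 past 0.5. pmela, a melanosome protein, had 6750, 5723 and 6353 counts in the libraries labelled HO, HE and WT, a log2 ratio of 0.01. gch2, which supplies pteridine pigment synthesis in xanthophores, had 7788, 8592 and 8766 counts, a log2 ratio of -0.25. The medians were -0.01 for 24 melanophore genes and -0.03 for 29 xanthophore and iridophore genes.

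Yolk syncytial layer and plasma protein genes lay on both sides. Of 65 measured genes, 27 (41.5%, compared with 12.3% of all genes) were below 0 beyond counting error and 16 (24.6%, compared with 15.7%) above 0. Past 0.5, 4 (6.15%, compared with 1.65%) were lower and 2 (3.08%, compared with 1.22%) higher, and the median was -0.05. The higher genes were c3b.1, a complement component, with 738, 416 and 405 counts in the libraries labelled HO, HE and WT (log2 ratio 0.78), and cp, the copper-binding plasma oxidase ceruloplasmin, with 2067, 1234 and 1295 counts (log2 ratio 0.59). In both, the libraries labelled HE and WT were alike. The lower genes carry lipids or retinoids, cleave esters or act in clotting. apoa4b.2, an apolipoprotein on chromosome 16, had 1166, 885 and 1680 counts, a log2 ratio of -0.61. rbp2a, a retinol binding protein, had 169, 186 and 260 counts, a log2 ratio of -0.69. ces2, a carboxylesterase, had 2059, 3865 and 2948 counts, a log2 ratio of -0.60, with the library labelled HE the highest. f7i, related to a clotting factor, had 136, 130 and 186 counts, a log2 ratio of -0.53. Of the 3 genes of this list with the most counts, all apolipoproteins, apobb.1 had 125312, 79342 and 101435 counts, a log2 ratio of 0.22 (0.21 to 0.24), apoa1a had 72465, 60946 and 71101 counts, a log2 ratio of -0.05, and apoa1b had 60315, 54532 and 58851 counts, a log2 ratio of -0.04. apobb.1 was highest in the library labelled HO and lowest in HE.

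Hatching gland genes had a median of -0.07 over 11 measured genes. Beyond counting error, 4 (36.4%, compared with 12.3% of all genes) were below 0 and 0 (compared with 15.7%) above 0. he1.1, a protease that dissolves the egg envelope, had 10342, 13626 and 11231 counts in the libraries labelled HO, HE and WT, a log2 ratio of -0.20, and its copy he1.2 had 2178, 3884 and 2674 counts, a log2 ratio of -0.38. In both, the library labelled HE was the highest. The gland cathepsin ctslb is listed under 2 identifiers, with log2 ratios of -0.51 and 0.06. Because reads can be split between them they were summed, to 1931, 3013 and 2095 counts, a log2 ratio of -0.20. Of the 26 gut, liver and pancreas genes, foxa3, an endodermal regulator, was past 0.5, with 214, 159 and 138 counts and a log2 ratio of 0.55. The 31 pronephros genes had 0 past 0.5 and a median of 0.01. Of 43 germ cell genes, 3 passed the minimum mean and 0 were past 0.5. These were celf1, nanos1 and h1f0, with log2 ratios of 0.01, -0.09 and -0.34 (-0.39 to -0.29 for h1f0). Whether the 3 genes are particular to germ cells was not examined. Because the other 40 were under the minimum mean, these values do not describe germ cells.

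The lists of Hox, Fgf, Wnt, Hedgehog, Bmp, Notch and retinoic acid signalling held 285 measured patterning genes. Past 0.5, 2 (0.70%, compared with 1.22% of all genes) were higher and 5 (1.75%, compared with 1.65%) lower. These counts do not set patterning genes apart from the rest. The 30 Fgf pathway genes had a median of 0.06. Of these, 9 (30.0%, compared with 15.7% of all genes) were above 0 and 1 (3.33%, compared with 12.3%) below 0 beyond counting error. The 43 Notch pathway genes had a median of 0.07. Beyond counting error, 14 (32.6%, compared with 15.7% of all genes) were above 0 and 1 (2.33%, compared with 12.3%) below 0. The receptor notch3 had 17046, 12278 and 14360 counts in the libraries labelled HO, HE and WT, a log2 ratio of 0.17, and the receptor notch1a had 6365, 4461 and 4923 counts, a log2 ratio of 0.29. Both were highest in the library labelled HO and lowest in HE. The ligand bmp4 had 493, 399 and 327 counts, a log2 ratio of 0.51, whereas id1, a target of Bmp signals, had 6339, 6893 and 5774 counts, a log2 ratio of 0.05. The ligand wnt4b on chromosome 16 had 112, 148 and 197 counts, a log2 ratio of -0.88, whereas ctnnb1, the beta-catenin of Wnt signalling on the same chromosome, had 14453, 12939 and 13330 counts, a log2 ratio of 0.04. disp2, of the Dispatched family of the Hedgehog pathway, had 104, 108 and 147 counts, a log2 ratio of -0.57. Among 38 Hox genes, which set position along the axis, hoxc6b had 130, 166 and 190 counts, a log2 ratio of -0.62, and the list median was -0.02.

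The retinoic acid genes past 0.5 were all on chromosome 16. rbp5, a retinol binding protein, had 501, 688 and 863 counts in the libraries labelled HO, HE and WT, a log2 ratio of -0.86 (-1.03 to -0.70). crabp2a, a retinoic acid binding protein, had 600, 647 and 810 counts, a log2 ratio of -0.51. rxrbb, a retinoid X receptor, had 401, 282 and 190 counts, a log2 ratio of 0.99 (0.74 to 1.25). In each the library labelled HE lay between HO and WT. The median of the 25 measured genes was -0.07, and the receptor rarga had 1220, 1034 and 1154 counts, a log2 ratio of 0.00.

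Among processes, proliferation genes had a median of 0.04 over 73 measured genes. Counting error was exceeded upward by 26 (35.6%, compared with 15.7% of all genes) and downward by 8 of the 73 (compared with 12.3%). The median half-width of the intervals was 0.10, compared with 0.21 over all genes, so that smaller ratios exceed counting error in this list. The S-phase clamp pcna had 8583, 8748 and 8850 counts in the libraries labelled HO, HE and WT, a log2 ratio of -0.12, and the proliferation marker mki67 had 9602, 7879 and 8875 counts, a log2 ratio of 0.03. hmgb2b, a chromatin protein of dividing cells, had 12168, 12456 and 11855 counts, a log2 ratio of -0.04. rrm2, a subunit of ribonucleotide reductase, is listed under 2 identifiers with opposite ratios, 0.70 and -0.23. Their sum was 6215, 6205 and 5629 counts, a log2 ratio of 0.06, so that the 1 proliferation gene past 0.5 was not past it once its reads were summed. The p53 response had 0 of 27 genes and the integrated stress response 0 of 32 past 0.5, with medians of -0.0033 and 0.06. Of all genes, 1.22% were past it on the higher side and 1.65% on the lower side. Beyond counting error, 7 of the 27 (25.9%, compared with 15.7% of all genes) were above 0 and 2 (7.41%, compared with 12.3%) below 0. Of the 32 stress response genes, 7 (21.9%) were above 0 and 5 (15.6%) below 0. ccng1, a p53 target, had 8949, 8747 and 8164 counts in the libraries labelled HO, HE and WT, a log2 ratio of 0.05. btg2 of the same list had 3587, 3452 and 2876 counts, a log2 ratio of 0.24, and gadd45gb.1 had a log2 ratio of -0.01. In the stress response list, atf4b had 3346, 2991 and 2421 counts, a log2 ratio of 0.39 (0.31 to 0.46). The log2 ratios of atf4a and xbp1, also among its genes with the most counts, were 0.05 and -0.05.

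Heat shock and chaperone genes had a median of -0.03 over 60 measured genes. Beyond counting error, 20 (33.3%, compared with 12.3% of all genes) were below 0 and 7 (11.7%, compared with 15.7%) above 0. Intervals in this list were narrow, with a median half-width of 0.11, compared with 0.21 over all genes. fkbp5, a co-chaperone of steroid receptors whose gene is induced by glucocorticoids, had 278 counts in the library labelled HO, 205 in HE and 879 in WT, a log2 ratio of -1.73 (-1.94 to -1.54). For HE over WT its log2 ratio was -2.00, so the library labelled WT stood apart. hspb9, a small heat shock protein, had 148, 74 and 248 counts, a log2 ratio of -0.82, and was also lowest in HE. dnajb1b, a co-chaperone of Hsp70, went the other way, with 245, 239 and 147 counts and a log2 ratio of 0.65. hspa8, an Hsp70 chaperone present in all cells, had 78538, 73165 and 81076 counts, a log2 ratio of -0.13.

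Circadian clock genes had a median of -0.07 over 34 measured genes. Beyond counting error, 8 (23.5%, compared with 12.3% of all genes) were below 0 and 1 (2.94%, compared with 15.7%) above 0. nr1d2a, a repressor of the clock on chromosome 16, had 392, 355 and 611 counts in the libraries labelled HO, HE and WT, a log2 ratio of -0.72. hlfa, of the clock-controlled PAR factors, had 101, 123 and 154 counts, a log2 ratio of -0.68, and arntl2, of the Bmal family, had 246, 351 and 361 counts, a log2 ratio of -0.63. The libraries labelled HO and HE were both low for nr1d2a, and HO alone for arntl2. The hour at which each genotype was collected is not given in the sources used here. Of the immediate early genes, nr4a3, an orphan nuclear receptor on chromosome 16, had 132, 136 and 188 counts (log2 ratio -0.58), and atf3, a stress-induced factor, had 124, 124 and 171 counts (log2 ratio -0.54). The median of these 42 genes was -0.07.

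Metabolic and cilium lists held few differences. Of 48 hypoxia and glucose genes, egln2, an oxygen-sensing prolyl hydroxylase, had 244, 94 and 156 counts in the libraries labelled HO, HE and WT, a log2 ratio of 0.56. ndrg1b, a hypoxia-induced gene on chromosome 16, had 477, 354 and 307 counts, a log2 ratio of 0.55. The 2 cholesterol synthesis genes past 0.5 of 18 measured were fdps on chromosome 16, which makes farnesyl diphosphate, with 1117, 919 and 744 counts (log2 ratio 0.50), and mvda, which makes isopentenyl diphosphate, with 136, 139 and 88 counts (log2 ratio 0.54). srebf2, the regulator of this pathway, had 828, 646 and 752 counts, a log2 ratio of 0.06. Among 49 cilium genes, cfap298, needed for motile cilia, had 166, 127 and 90 counts, a log2 ratio of 0.79, and rpgrip1l, of the ciliary transition zone, had 93, 84 and 127 counts, a log2 ratio of -0.52. The list median was 0.01.

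**Figure D4:**
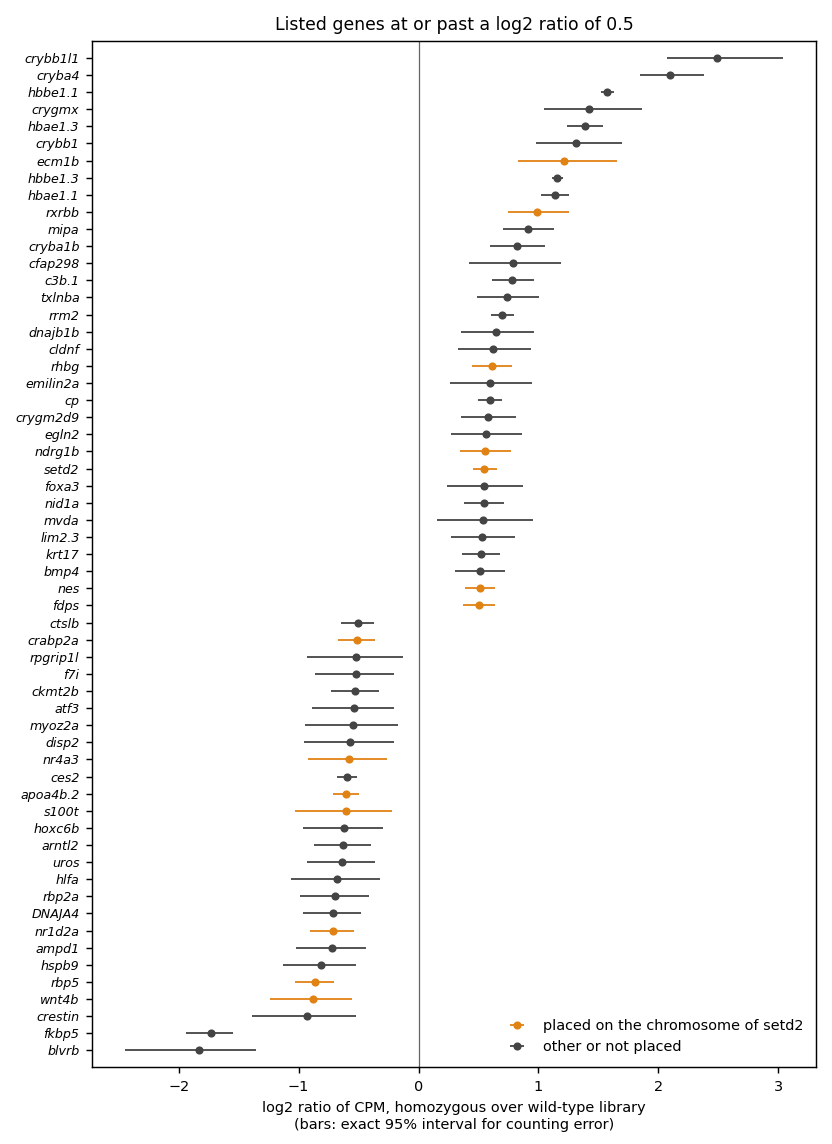
Log2 ratio of CPM of the library labelled HO over WT (horizontal axis) for the 59 listed genes at or past 0.5 in size, with exact 95% intervals for counting error as bars, and genes placed on the chromosome of setd2 in orange. The 14 orange genes lie on both sides of 0, from wnt4b at -0.88 to ecm1b at 1.21.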

How the data were processed

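RNA-seq values of 3 whole-embryo libraries at 36 hpf were used as deposited. The deposited counts are reads per gene without normalization, and the deposited FPKM values are the authors' counts per exonic length and library total, which entered alternative settings only. For the alignment, the study's methods name TopHat with GRCz10 and Cufflinks, whereas the submitters' processing notes name HISAT2 2.0.2 and GRCz11. The counting tool and strand setting are not given in the sources used here, so overlapping and antisense genes cannot be told apart. A column of 1 of the tables carries the heading of another library and was left aside (1 column).

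Counts were scaled by TMM in edgeR 4.0.16 (R 4.3.3) over genes whose mean reached 10 counts (factors 1.002, 0.992 and 1.006 for the libraries labelled HO, HE and WT), and log2 ratios of CPM used a prior count of 2. Exact Clopper-Pearson intervals of 95% for the share of a gene's scaled reads in 1 of 2 libraries were turned into log2 ratios (scipy 1.17.1, Python 3.11.15). Members under 100 counts in a library numbered 121 in HO, 422 in HE and 180 in WT. Such members passed the minimum mean through libraries where they were higher. The length trend was removed with the median of 20 bins of exonic length. Lists were matched by symbol, and 29201 of 32520 identifiers had a reference name. Chromosomes come from the GRCz12tu annotation, which placed 10592 of the 11647 genes, and positions are not given because the builds differ. The calculation was tested on simulated data.

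Named genes were setd2, up to 3 of the most abundant and 3 farthest on each side past a log2 ratio of 0.5 in each list, and the 10 highest and 10 lowest of all; others were chosen after their values were seen. The members and lists were chosen with earlier results of these data known. Results were recomputed with size factors from DESeq2 1.42.0, with totals in place of TMM, with FPKM plus 1 or plus 0.1, with other minimum means, with a prior count of 0.25, with a log2 ratio of 1 and with the length trend removed. Leaving out genes placed on chromosome 16 was added after seeing the data.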

Additional observations from a re-analysis of the deposited data

How the results depend on the processing

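The numbers of genes higher and lower past 0.5, which were 142 and 192, became 81 and 111 with FPKM and a pseudocount of 1, 965 and 1259 with a minimum mean of 10 counts, 3150 and 3405 with no minimum, 49 and 50 with a minimum mean of 300 counts, and 18 and 15 at a log2 ratio of 1. Without genes placed on chromosome 16 they were 117 and 161. The globin median of 0.39 was 0.59 with no minimum and 0.74 with a minimum mean of 300 counts. Values near 0 changed sign under at least 1 of the settings run: 22 named genes, whose log2 ratios were at most 0.081 in size, and 12 list medians of at most 0.029 in size. Beyond their counting error, 27 named genes moved with the length trend removed and 3 with FPKM and a pseudocount of 1. List medians past 0.1 and named genes past 0.5 kept their sign under those settings. No paired analysis was possible because each genotype has 1 library, and for the same reason no replicate could be left out. A difference between libraries may be of genotype, stage or handling, which cannot be told apart here. Counting error limits genes near 100 counts most.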

Other observations

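Among genes outside the lists, the largest differences concerned genes of several functions. LO017829.1, named tex47 in the reference, had 620, 295 and 147 counts in the libraries labelled HO, HE and WT, a log2 ratio of 1.98. gba, the lysosomal glucocerebrosidase, had 275, 135 and 77 counts, a log2 ratio of 1.73. The deubiquitinase gene usp45 on chromosome 16 had 170, 133 and 61 counts, a log2 ratio of 1.37. In these 3 genes the library labelled HE lay between HO and WT. On the lower side, ensab, an endosulfine gene on chromosome 16, had 78, 152 and 267 counts, a log2 ratio of -1.83, again with HE between. tmem107, a gene of the ciliary transition zone outside the cilium list, had 43, 181 and 108 counts, a log2 ratio of -1.37, with HE the highest. The cathepsin gene ctsll had 96, 130 and 221 counts, a log2 ratio of -1.26. Of these genes, gba and usp45 passed the minimum mean through HO and HE, and ensab, tmem107 and ctsll through HE and WT. vgll4b, a cofactor of Tead factors, had 1489, 881 and 598 counts, a log2 ratio of 1.23, and was chosen after its values were seen. The other unlisted genes among the 10 highest and 10 lowest were CABZ01057891.1, at a log2 ratio of 1.70, and si:ch211-105c13.3 on chromosome 16, tspan35, ybey, zgc:158619 and fhdc3, at log2 ratios of -1.59 to -1.19.

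Genes that respond to glucocorticoids were looked up after the low level of fkbp5 was seen. klf9, a transcription factor gene under the minimum mean, had 35, 22 and 88 counts in the libraries labelled HO, HE and WT, a log2 ratio of -1.36 (-2.02 to -0.83), the same order of libraries as fkbp5. tsc22d3, also induced by these hormones, had 835, 655 and 891 counts, a log2 ratio of -0.17, and the clock gene per1b had 115, 65 and 139 counts, a log2 ratio of -0.35 (-0.72 to 0.01). hsd11b2, which inactivates cortisol, had 387, 388 and 531 counts, a log2 ratio of -0.53. The receptor gene nr3c1 had 940, 738 and 783 counts, a log2 ratio of 0.18. The metallothionein gene mt2 had 457, 665 and 708 counts, a log2 ratio of -0.71, with HE near WT. These 7 genes, fkbp5 included, were picked by name and no statement about the hormone follows from them.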
